A study of Salmo salar with 54 samples.

Results

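Among 18900 genes measured in Atlantic salmon hepatocytes, 90 had a much lower transcript level after 250 µM arsenosugar while their group means stayed close to control at 1 and 3 µM arsenite. They were chosen from the measured values themselves: a mean log2(value + 1) at 250 µM arsenosugar at least 2 below that of its control, differences smaller than 0.3 in either direction at 1 and at 3 µM arsenite, and a mean of at least 100 normalised reads in the arsenosugar control. Of the 10003 genes that reached this level in the control, 504 (5.04%) were lower by at least 2 at 250 µM, and the 90 genes made up 17.9% of those. The other 414 had moved by 0.3 or more at 1 or 3 µM arsenite. By name, 33 of the 90 carried a gene symbol and 57 only a locus name, and 87 were annotated as protein coding and 3 as pseudogenes.

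The cells were primary hepatocytes (liver cells taken directly from the animal) of 6 male salmon, whose age is not given in the labels, grown on 3D polystyrene scaffolds and exposed for 48 h. Hepatocytes of every fish received arsenosugar glycerol (AsSug, an organic form of arsenic bound to a sugar) at 5, 10, 50 or 250 µM beside an arsenosugar control, and on separate plates arsenite (AsIII, inorganic trivalent arsenic) at 0.1, 1 or 3 µM beside an arsenite control. Each of the 9 groups thus held 6 RNA libraries, 1 per fish, and a value is a gene's read count divided by 1 size factor per library (a normalised read). Each fish gave 1 library per group, so spreads are over 6 animals and include any technical difference between wells.

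Cholesterol is assembled by enzymes that sit largely in the membrane of the endoplasmic reticulum, starting from isoprenoid units that are joined, folded into a ring system and then trimmed and reduced. The same membrane system makes, folds and ships the membrane and secreted proteins that a hepatocyte exports in bulk, with vesicles leading on to the Golgi and the lysosome. Several of the named genes below encode enzymes, shaping proteins or cargo receptors of these compartments.

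The 250 µM libraries differed from the rest in ways that cannot be told apart from the dose. They held 0.898 to 5.38 M reads, against 8.79 to 24.0 M in the other 48 libraries, and 207 to 921 genes without any read against at most 39. The labels remark on the RNA integrity of the 250 µM cells separately from that of the other groups, which they call good, but that text is cut off and the value is not known here. Their library names form a numbered series of their own in the file header. Hepatocyte markers were present: their 9 measured genes summed to 208634 to 510288 normalised reads at 250 µM and to 746013 to 971644 in the control, with 5 lower and 3 higher. Summed marker levels at 250 µM against control were 264 to 331 against 198 to 244 for endothelial cells (3 genes), 147 to 242 against 295 to 693 for stellate cells and fibroblasts (3), 651 to 1607 against 2537 to 3083 for macrophages and granulocytes (3), 794 to 2018 against 1204 to 1835 for lymphocytes (2), 509 to 729 against 252 to 365 for erythrocytes (1) and 2112 to 2898 against 2561 to 3271 for cholangiocytes (2). Of the endothelial, of the lymphocyte and of the cholangiocyte genes, 1 was called lower and 1 higher (limma, adjusted p below 0.05). Of the stellate and of the macrophage genes 2 were lower and 0 higher, and the erythrocyte gene was higher. The sums hide genes that went the other way: kdr stood at -2.28 beside esamb at 0.57, and jag1b at 2.69 beside anxa4 at -0.43. No marker was at 0 in all 6 libraries at 250 µM, none was among the 90 genes, and the part of other cell types in the differences was not tested. In bulk RNA, fewer cells of a type and less RNA per cell cannot be told apart.

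The difference between 250 µM and control, written s below, had a median of -2.37 over the 90 genes, where the median of all genes was -0.20. It was -3 or lower in 14 genes, between -3 and -2.5 in 21 and above -2.5 in 55. These values chose the genes, so they are a description and carry no test. With library totals in place of the authors' size factors 49 genes met the rule, 40 of them among the 90. Every one of the 90 was lower in 6 of 6 fish, and in 88 the highest library at 250 µM lay below the lowest control library. The rule favours both counts, since it required a mean fall of at least 2. Of all 18900 genes, 22.8% were lower with groups that did not overlap, as were 31.4% of those at 100 or more in the control. By limma, 36.5% of 18755 genes tested were called lower at 250 µM at an adjusted p below 0.05. Just inside the threshold stood LOC106579267, cab39 and pdcd2 (s of -2.003, -2.002 and -2.0001). Just outside stood mrps26 (-1.99), which encodes a protein of the mitochondrial ribosome, mfsd8 (-1.99), which encodes a lysosomal membrane protein, and LOC106587684 (-1.98).

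**Figure D1:**
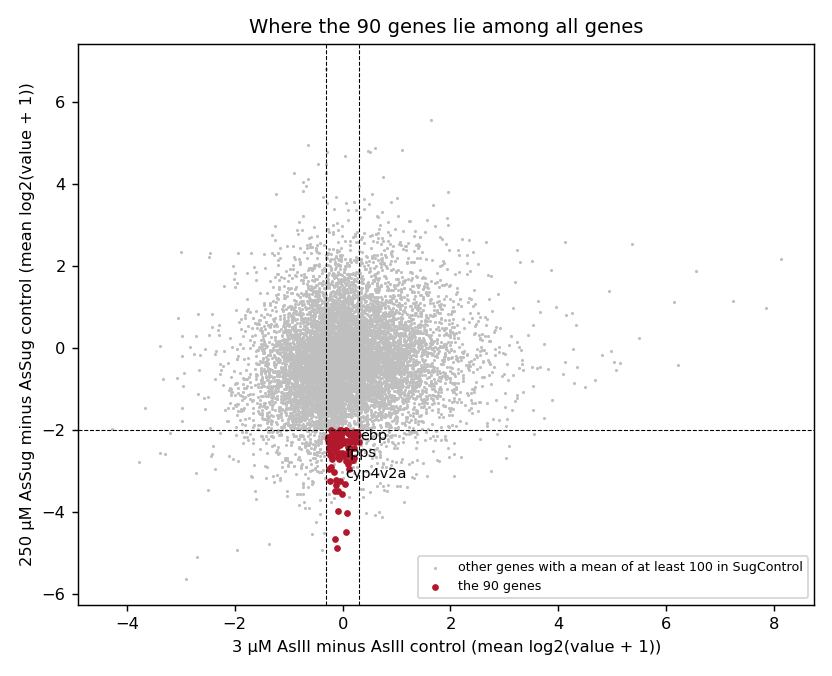
Each point is a gene with a mean of at least 100 normalised reads in the arsenosugar control: the horizontal axis gives its difference at 3 µM arsenite and the vertical axis its difference at 250 µM arsenosugar, both from their own control on the log2(value + 1) scale. Dashed lines mark -2 and ±0.3, and the 90 genes (red) lie below -2, with a median of -2.37; grey points in the same field had moved by 0.3 or more at 1 µM arsenite.

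Genes of cholesterol synthesis were among the 90, at an early and a later step. ebp (GeneID 106573007) encodes the sterol isomerase that shifts a double bond in the ring system. Its lowest, median and highest library values were 188, 332 and 585 at 250 µM, against 1160, 1322 and 1750 in the control. Levels of the genes below, where listed for 250 µM against control, follow the same order. The s of ebp was -2.11 ± 0.64. The groups did not overlap, and fish 1 gave the smallest difference (-1.14) and fish 5 the largest (-2.96). fpps (GeneID 100195349), the symbol of farnesyl pyrophosphate synthase, an enzyme that joins isoprenoid units early in the pathway, had 75.3, 206 and 551 at 250 µM against 1001, 1196 and 1673 in the control, with s of -2.54 ± 0.82. Again the groups did not overlap, with -1.30 in fish 1 and -3.76 in fish 2, the fish with the shallowest library. The gene is not on the sterol list described next, which was matched by other symbols.

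At the lower arsenosugar concentrations the medians of ebp lay within the range of its control libraries. They were 1322 in the control, 1353 at 5 µM, 1439 at 10 µM and 1460 at 50 µM. On the arsenite plates the medians were 1499 in the control, 1517 at 0.1 µM, 1643 at 1 µM and 1698 at 3 µM. The lowest of those 24 arsenite-plate libraries, at 719 (0.1 µM), still lay above the highest at 250 µM arsenosugar.

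A list on sterol synthesis and uptake held 13 further measured genes, none of which met the rule. At 250 µM against control 11 of these 13 were called lower and 2 higher (limma, adjusted p below 0.05 over all genes), with a median of -0.97, beside 36.5% of all genes lower and 26.7% higher. Counting ebp, which the rule chose for its value in this contrast, 12 of 14 were lower. With library totals as the scale 9 of 14 were, where 4933 of all genes were called lower in place of 6845. The largest fall outside the 90 was that of pmvk, a kinase of the mevalonate steps, with means of 20.8 and 70.5 normalised reads at 250 µM and in the control (-2.25 ± 0.53 standard error, limma adjusted p = 0.00168). sc5d, the sterol desaturase, fell by 1.45 ± 0.19 (limma adjusted p = 1.0e-05) and hmgcs1, which makes the precursor of mevalonate, by 0.97 ± 0.14 (limma adjusted p = 2.4e-05). The higher genes were soat1, which esterifies cholesterol (1.4 ± 0.26, limma adjusted p = 2.6e-04), and npc1l1, a sterol uptake protein (0.85 ± 0.14, limma adjusted p = 7.3e-05). Each ± in this paragraph is limma's standard error.

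The rule held ebp and fpps near control at 1 and 3 µM arsenite, so any contrast there with other genes was set by the choice. At 3 µM arsenite 6 of the 13 further genes of the sterol list were called lower and 5 higher, beside 35.1% and 36% of all genes. They ran between -1.85 for insig1, which restrains sterol synthesis in the endoplasmic reticulum, and 0.96 for npc1, which exports cholesterol out of lysosomes. ebp stood at 0.13 and fpps at -0.14.

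**Figure D2:**
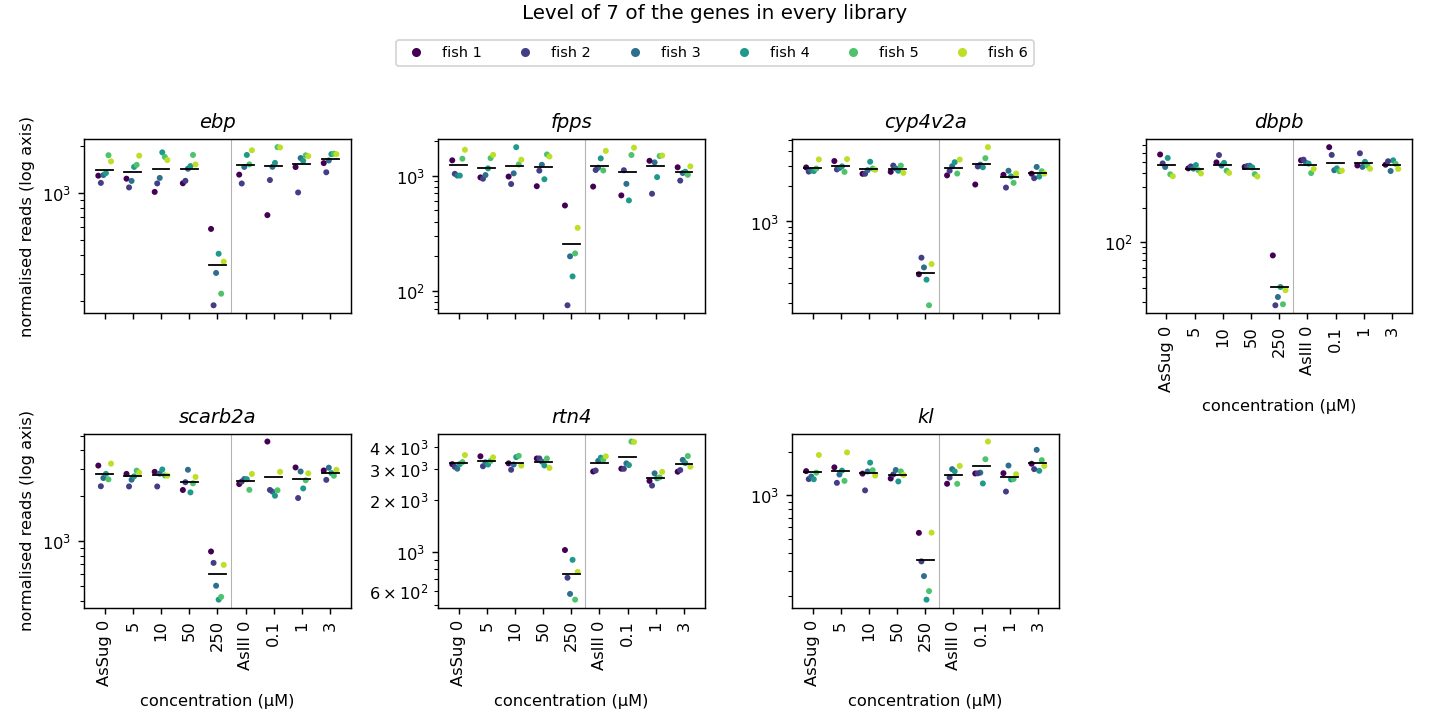
Each point is the normalised read count of 1 library (log axis), coloured by fish, in the 9 groups ordered by concentration in µM (0 is the control of each compound), and black bars are group means of 6 libraries. In the 7 genes shown every library at 250 µM AsSug lies below every other library, with dbpb at 28.2 to 76.7 against 373 or more elsewhere.

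Genes of lipid and fuel handling were the next group. cyp4v2a (GeneID 106602559) encodes a cytochrome P450 that in humans hydroxylates fatty acids. It was among the most abundant of the named genes, with 192, 379 and 490 at 250 µM against 2674, 2788 and 3398 in the control, and s was -3.03 ± 0.48. Its second copy, cyp4v2b, had 69.9, 127 and 230 against 492, 596 and 652, with s of -2.17 ± 0.67. Both copies were low in all 6 libraries at 250 µM, and how the authors' counting divided reads between such duplicated salmon genes is not given in the sources used for it here.

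bckdha (GeneID 106613373), the catalytic subunit of the complex that breaks down branched-chain amino acids, had 20.2, 104 and 169 at 250 µM against 442, 533 and 645 in the control (s of -2.72 ± 1.08). Its groups did not overlap. It was the only member among 31 measured genes of a list on amino acid, urea and one-carbon metabolism. Members were 33 of all 6223 genes with a symbol. Of the 31 genes, 16 were called lower and 4 higher at 250 µM with a median of -0.45, beside 36.5% and 26.7% of all genes. The 16 include bckdha, which the rule chose for its value in this contrast.

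Among the 90 were 3 transporter genes, of 112 tested in a list of solute carriers and ABC transporters. For all genes with a symbol the share was 33 of 6223. In the list 57 were lower and 21 higher with a median of -0.58, beside 36.5% and 26.7% of all genes. The 57 include the 3 members, which the rule chose for their values in this contrast. slc16a5a, of the monocarboxylate transporter family, had 33.4, 52.2 and 151 at 250 µM against 437, 494 and 580 in the control, with s of -2.91 ± 0.86. abcb8, a transporter of the inner mitochondrial membrane, had 11.9, 26.2 and 56.5 against 137, 175 and 221, with s of -2.71 ± 0.71. slc66a2 rested on 1 library: it had 0, 36.7 and 90.8 against 80.3, 125 and 133, and its difference of -6.94 in fish 2, whose library held no read, stood far below the -0.54 to -1.89 of the other 5 fish. Its groups overlapped.

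The remaining 25 of the 28 gene lists examined held 0 members, among them secreted plasma proteins (15 of 19 lower at 250 µM, 2 higher), nuclear oxidative phosphorylation (11 of 26 lower, 3 higher), cytosolic ribosomal proteins (13 of 44 lower, 12 higher), heat shock and protein folding (10 of 15 lower, 4 higher) and the NRF2 response (10 of 16 lower, 1 higher). Of all genes tested 36.5% were lower and 26.7% higher. Members were 33 of the 6223 genes with a symbol, a share at which lists of this size could hold none. Lists were matched by symbol or by a listed synonym, such as tmed2 for LOC100195679. Genes with a locus name only could enter them only by a synonym, and none of the 57 did.

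Several of the other symbols stand for proteins of membranes and cell compartments, whose share among all genes was not counted. They were set together here after their values were seen, and so no test was made. pigo (GeneID 106565159), which adds ethanolamine phosphate to the glycolipid anchors of cell surface proteins, had 0, 10.2 and 15.5 at 250 µM against 91.6, 146 and 156 in the control. dnajb12a, a co-chaperone in the membrane of the endoplasmic reticulum, had 16.2, 33.3 and 59.6 against 211, 234 and 280. rtn4, a reticulon that curves tubules of that membrane, was the most abundant member with a symbol, at 536, 744 and 1031 against 3020, 3208 and 3617. Their s values were -4.02 ± 1.65, -2.82 ± 0.67 and -2.13 ± 0.36, so the abundant rtn4 was also the one that varied least between fish. The s of pigo leaned on fish 2 and on the added 1: it was -3.37 without fish 2, and -3.34 with 5 added in place of 1. Of the 12 measured genes named as pig, 11 had a negative difference, and pigx stood at 0.70. Of the 5 reticulon genes 3 did, while rtn7 stood at 0.18 and rtn10 at 0.24. Of all genes at 100 or more in the control, 64.2% had a negative difference. The counts include pigo and rtn4, which the rule chose for theirs, and most of the pig genes lay below 100 in the control.

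Cargo receptors and later compartments followed. tmed10 and tmed2 (a synonym of LOC100195679) encode cargo receptors of the vesicles between endoplasmic reticulum and Golgi. tmed10 had 96.6, 244 and 351 at 250 µM against 957, 1044 and 1216 in the control, and tmed2 had 34.3, 69.5 and 93.2 against 301, 346 and 408. Of the 10 measured genes of this family, all 10 had a negative difference, between -0.22 for tmed1a and -2.45 for tmed2, beside 64.2% of all genes at 100 or more in the control. The count includes tmed10 and tmed2, which the rule chose for theirs, and tmed1, tmed5 and tmed1a lay below 100 in the control. scarb2a, a lysosomal membrane protein that in mammals carries glucocerebrosidase there, had 408, 599 and 852 against 2309, 2705 and 3263, with s of -2.26 ± 0.41. tm9s2, of a Golgi and endosome membrane family, had 97.8, 111 and 198 against 489, 516 and 531. wdr45b, an adaptor of autophagosome formation, had 10.2, 22.8 and 75.3 against 154, 161 and 165. In all 5 of these the highest library at 250 µM was below the lowest control.

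Other membrane proteins of less settled role were tmem161b (0, 6.91 and 37.7 against 99.5, 106 and 122), mfsd14bb, of a carrier superfamily (8.89, 19.6 and 43.7 against 183, 203 and 221), and grina, of a family that acts on calcium and cell death (5.08, 18.3 and 38.4 against 149, 167 and 222). Their s values were -3.97 ± 1.85, -3.35 ± 0.85 and -3.32 ± 1.21. tmem161b held only 17 reads in the 6 libraries at 250 µM, and 1 of them had none.

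The next genes share no list and were set together after their values were seen. dbpb (GeneID 106605774) encodes a leucine zipper transcription factor whose mammalian relative follows the circadian clock. It had 28.2, 35.7 and 76.7 at 250 µM against 375, 468 and 580 in the control, and its s of -3.56 ± 0.41 was steep in all 6 fish, between -2.90 and -4.05. kl (klotho), in mammals a co-receptor of a hormone that controls phosphate, had 189, 312 and 551 against 1290, 1390 and 1899, with s of -2.14 ± 0.54. cdip1, linked in mammals to cell death, had 149, 282 and 339 against 1398, 1526 and 1968, with s of -2.61 ± 0.37. prnpb, a prion protein gene, had 18.6, 56.5 and 158 against 169, 265 and 304. cab39, a scaffold of a kinase that senses energy stress, had 35.6, 54.5 and 64.1 against 182, 204 and 231 and the smallest SD of s among the 33 genes with a symbol (0.23). pdcd2, which in yeast and mammals helps build the small ribosomal subunit, had 8.47, 30.5 and 54.5 against 99.5, 107 and 140.

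The other members with a symbol were nubp1 (s of -2.65), which helps assemble iron-sulphur proteins, tmem135 (-2.57), ppp1r11 (-2.43), an inhibitor of a protein phosphatase, aplp2 (-2.30), a relative of the amyloid precursor protein, enpp2l (-2.27), mturn (-2.19), gatd1 (-2.11) and gfm2 (-2.01), a factor that recycles mitochondrial ribosomes. The 57 genes with a locus name only had s between -4.67 and the threshold with a median of -2.36, and the 4 members above 5000 normalised reads in the control were all of this kind. The highest, LOC106576198, had 4098, 7296 and 15575 at 250 µM against 26154, 29608 and 37301 in the control, with s of -2.05.

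**Figure D3:**
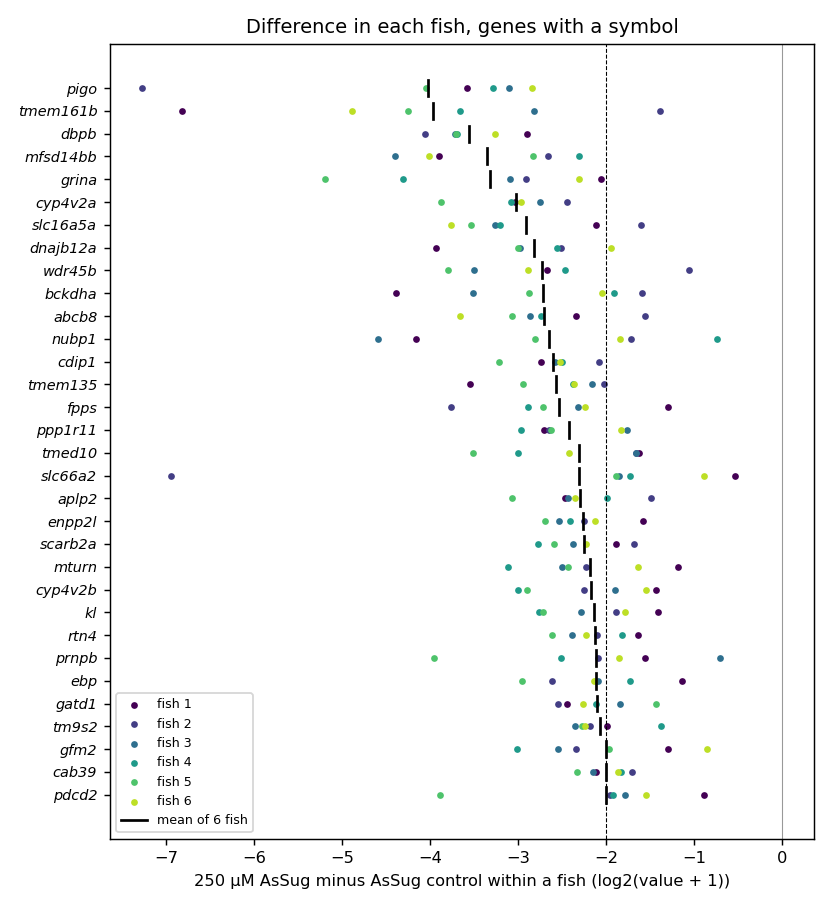
For 32 of the genes with a symbol, each point is the difference between 250 µM arsenosugar and control within 1 fish on the log2(value + 1) scale, the black bar is the mean of 6 fish, and the dashed line marks -2. Points lie left of 0 in every fish; cab39 is tight (SD 0.23), whereas fish 2 alone places slc66a2 at -6.94.

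The fish did not give equal values. The median difference of the 90 genes was -2.29, -2.09, -2.51, -2.43, -2.91 and -2.26 in fish 1 to 6, and 13 of the genes were lower by at least 2 in every fish. The SD over fish had a median of 0.71 for the 90 genes, against 0.43 for all genes at 100 or more in the control. Counting error is part of this spread: a member had a median of 20 reads per library at 250 µM, and 8 of the 90 had no read in at least 1 library. LOC106601086 had none in 3 libraries, which makes its s of -4.67 ± 2.46 depend on the added 1. Outside the 250 µM group no library held fewer than 8 reads of any member.

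In control cells the levels of the 90 genes differed widely. Their control means ran between 104 and 30485 normalised reads with a median of 275, against 301 for the genes that were flat at arsenite and not lowered. There were 34 below 200 and 18 at 1000 or more. In the gene order of the assembly Ssal_v3.1, 84 could be placed on 24 chromosomes with at most 7 on one, and 3 pairs lay within 5 places of each other, one of them ebp with a gene of locus name only.

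The 90 genes' median differences from control were -0.01 at 5 µM, 0.00 at 10 µM and -0.05 at 50 µM arsenosugar, with the widest single value at -0.46 (nubp1 at 50 µM). At 50 µM 62 of the 90 lay below their control, beside 51.4% of all genes at 100 or more in the control. These differences and those at arsenite share the control libraries with the rule and carry no test. At 0.1 µM arsenite, a concentration the rule did not use, the median was 0.01 and the lowest gene was pigo at -0.64. Over the 24 libraries at 5, 10 and 50 µM arsenosugar and 0.1 µM arsenite, pigo was lowest in fish 1. Its log2 range between fish was 1.21 there, against a median of 0.335 for the 90 genes. Whether 1 library set its value at 0.1 µM was not tested. At 1 and 3 µM arsenite, where the rule kept every gene within 0.3, the median of the 90 genes was 0.00 and -0.06.

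**Figure D4:**
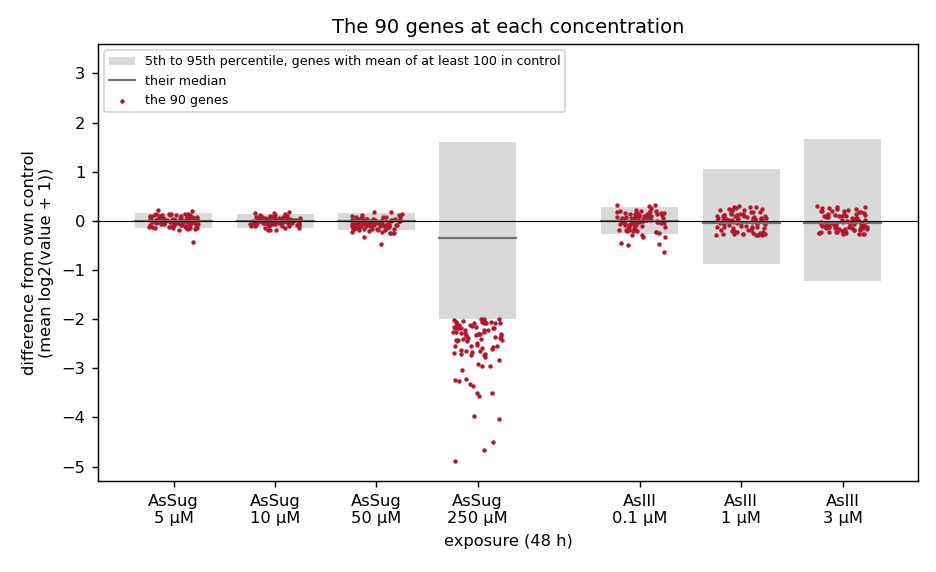
Red points are the 90 genes' differences from their own control (mean log2(value + 1), n = 6 libraries per group) at each concentration, and the grey bar with its line gives the 5th to 95th percentile and median of the genes with at least 100 normalised reads in the arsenosugar control. The genes' median is -0.05 at 50 µM and -2.37 at 250 µM arsenosugar, and at 1 and 3 µM arsenite they lie within the 0.3 that the rule set.

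The 18 libraries at 5, 10 and 50 µM arsenosugar took no part in the choice, so contrasts among them could be tested. By limma no member was called at an adjusted p below 0.05 at 50 against 5 µM, 50 against 10 µM or 10 against 5 µM, where 0.00532%, 0.0372% and 0% of 18795 genes were called. The smallest adjusted p of a member was 0.456, 0.0865 and 0.718 in these contrasts. edgeR called no member either, and DESeq2 called 1 at 50 against 10 µM, LOC106576775 (-0.30 with DESeq2, adjusted p = 0.0413, and -0.31 ± 0.06 standard error with limma, adjusted p = 0.0865).

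Without adjustment the members leaned to lower values at 50 µM. At 50 against 5 µM 17 of 90 (18.9%) had a limma p below 0.05 and all 17 were lower, beside 3.64% of all genes in that direction. At 50 against 10 µM there were 13 (14.4%), again all lower, beside 4.24%. At 10 against 5 µM there were 2, both lower, beside 3.13%. Differences below 0 were found in 61, 67 and 44 of the 90 genes, or 67.8%, 74.4% and 48.9%, beside 51.8%, 51.2% and 50.8% of all genes. The contrasts at 50 µM share its 6 libraries and are not independent of each other. Without fish 6 the 17 became 7 (2.72% of all genes), without fish 1 they became 11 (3.19%), and without a fish term 7 (1.48%).

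The medians over the 90 genes were -0.05 at 50 against 5 µM, -0.04 at 50 against 10 µM and 0.00 at 10 against 5 µM, beside medians over all genes of -0.01 at 50 against 5 µM and 0.00 in the other contrasts. Among genes with a symbol, named here for having the smallest p values, cdip1 stood at -0.16 ± 0.06 against 5 µM (limma adjusted p = 0.645) and -0.19 ± 0.06 against 10 µM (limma adjusted p = 0.363), and mturn, a gene of neural differentiation in frogs, at -0.19 ± 0.07 and -0.21 ± 0.07 (limma adjusted p = 0.647 and 0.379). nubp1 had the lowest values, -0.36 ± 0.17 and -0.46 ± 0.17 (limma adjusted p = 0.758 and 0.500). In these contrasts ± is the standard error of the limma fit, not an SD over fish.

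The 414 genes that were lowered as far at 250 µM but moved at arsenite also leaned to lower values at 50 µM. At 50 against 5 µM 35 of them (8.45%) and at 50 against 10 µM 62 (15.0%) had an unadjusted limma p below 0.05 with a lower value, against the 18.9% and 14.4% of the 90 genes. Differences below 0 were found in 65.5% and 63.5% of the 414. No test was made between the sets. Their control levels (median 250 normalised reads) and s (median -2.46) were close to those of the 90 genes.

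**Figure D5:**
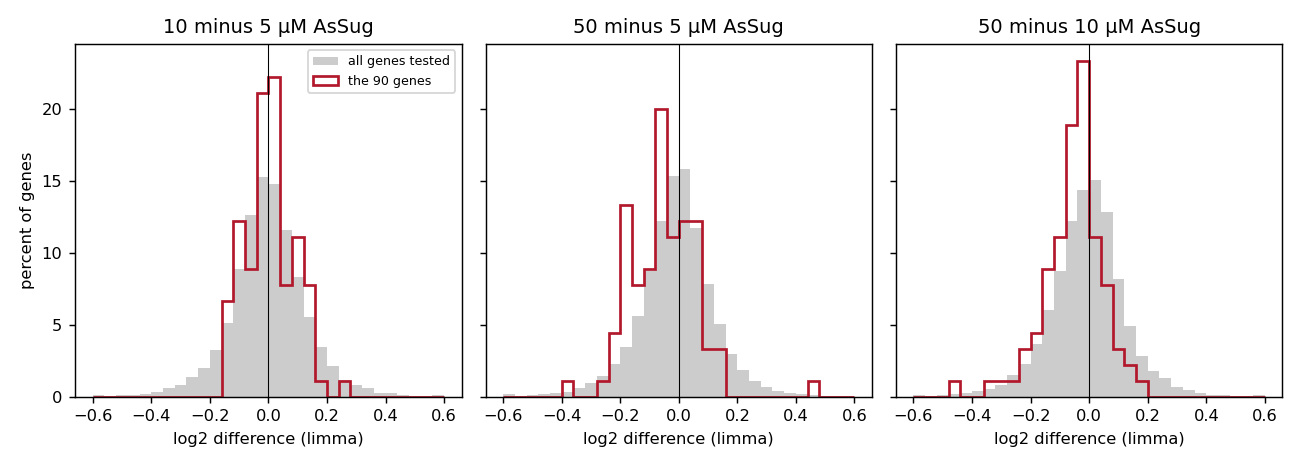
Histograms of limma log2 differences between arsenosugar concentrations for the 90 genes (red line) and all 18795 genes tested (grey), as percent of genes, with values beyond ±0.6 drawn at the edge. At 10 minus 5 µM 44 of the 90 genes lie below 0, at 50 minus 5 µM 61 and at 50 minus 10 µM 67.

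Some of these genes differed between animals. In the 24 libraries at 5, 10 and 50 µM arsenosugar and 0.1 µM arsenite, none of which the rule used, 9 of the 90 genes (10.0%) differed between fish by the limma F test at an adjusted p below 0.05, beside 16.2% of all genes, 19.1% of those at 100 or more in the control and 23.4% of the 414. The counts moved with the libraries used. In the 18 arsenosugar libraries alone 29 of the 90 were called, beside 27.8% of all genes. Without fish 2 there were 5 (9.35% of all genes) and without fish 6 also 5 (8.7%), whereas 17 were called without fish 1 (17% of all genes). The 9 split into 4 genes with a symbol and 5 with a locus name only.

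Both ebp and fpps of the sterol genes were among them and followed the same fish. Mean ebp was 1030, 1160, 1336, 1587, 1737 and 1714 normalised reads in fish 1 to 6 (limma adjusted p = 0.00101), and mean fpps was 857, 1001, 1036, 1115, 1425 and 1523 (limma adjusted p = 0.0255). Fish 1 was thus lowest and fish 5 or 6 highest in each. This order was not limited to sterol genes: LOC106605924 averaged 730 in fish 1 and 1395 in fish 6, its lowest and highest. prnpb, too, was lowest in fish 1 and highest in fish 5. Of the 13 other sterol genes 1 differed between fish, soat1, which was highest in fish 1 and lowest in fish 6 (limma adjusted p = 0.0150).

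The other members with a symbol that differed between animals were prnpb and dbpb. prnpb averaged 191, 221, 304, 244, 313 and 274 in fish 1 to 6 (limma adjusted p = 1.0e-04), and dbpb 514, 516, 447, 461, 412 and 397 (limma adjusted p = 0.0464). Fish 1 was lowest for prnpb and among the highest for dbpb. The widest spread of the 9 was a log2 range of 1.0 between fish 1 and fish 6 in LOC106569947.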

How the data were processed

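HISAT2, Subread's featureCounts and DESeq2 1.40.2 are named in the submitters' processing notes. The deposited signal is, per gene, a read count that the authors scaled by one size factor for each library, which was tested on the file: 100% of the values returned whole reads within a tolerance of 0.1 reads (largest deviation 0.0931). Build and annotation: not given in the sources used here. All 54 columns were mapped to fish and group by their labels. Symbols came from RefSeq (assembly Ssal_v3.1), which listed 18899 of 18900 GeneIDs, 6223 of them with a symbol. Further genes are not reported here.

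Tests used limma 3.58.1 (mean trend, R 4.3.3) on log2(value + 1), with fish as a term, for genes at 10 or more in at least 6 libraries of the fit. P values are two-sided and adjusted by Benjamini-Hochberg over all genes tested. edgeR 4.0.16 and DESeq2 1.42.0 on the recovered reads, other scales, pseudocounts and left-out fish were alternatives. The labels name the same animal for same-numbered libraries, and same-fish deviations between the 5, 10 and 50 µM groups correlated at r of 0.0761 to 0.577 across genes (18 pairs). The scripts were tested on simulated data. The genes and the gene lists were chosen with earlier results of these data known. Genes were named by rule: the 12 with the lowest s and the 6 with the highest control level among those with a symbol, up to 4 per list, up to 4 that differed between fish, and 3 on either side of the threshold. Other genes were named after their values were seen. Reads carry no molecular identifiers, so read numbers cover counting error only.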

Additional observations from a re-analysis of the deposited data

Results flagged for a closer look

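In 44 groups of 6 libraries (22 named genes at 250 µM arsenosugar and in its control), 7 had a highest or lowest library set apart from the other 5 by a gap above Dixon's critical share of the group's range, which chance gives in about 1 of 20 groups. At 250 µM, fish 2 was set apart on the high side for tmem161b (37.7 normalised reads, next 13.3), wdr45b (75.3, next 29.1) and abcb8 (56.5, next 26.7), and fish 1 for dbpb (76.7, next 40.8). The fish 2 library at 250 µM was the shallowest of all. Its counts were divided by a size factor of 0.106, so its flagged values rest on few reads. The part of its depth in these values was not tested. In the control, fish 6 was set apart for cyp4v2a (3398, next 2902), kl (1899, next 1469) and, on the low side, slc66a2 (80.3, next 116).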

How the results depend on the processing

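How many genes meet the rule depends on the scale. With library totals 49 genes met it, 40 of them among the 90, and the median difference of all genes at 250 µM became 0.09 in place of -0.20. On that scale s no longer reached -2 in ebp (-1.81), rtn4 (-1.83), kl (-1.84), prnpb (-1.82) and scarb2a (-1.96). Nor did it in cab39, pdcd2 and LOC106579267 (-1.71 each), whereas fpps stood at -2.24. With TMM factors 73 met it (71 shared), with a control mean of at least 10 in place of 100, 178 (all 90 shared), and without 1 fish in turn 70 to 94, of which 63 to 80 were shared. The other settings gave counts within 1.5 times. Of 250 recomputed differences of the 25 named genes, none changed sign. These genes were chosen for values near -2 or lower, so a sign change was unlikely from the outset. Only 1 difference moved by more than its SD over fish: cab39, -1.71 with library totals. That measure is lenient where fish vary widely: slc66a2 went from -2.31 to -1.38 without fish 2 and was not counted as moved.

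Between arsenosugar concentrations 0 members were called in each contrast without the replicate block, as with it. DESeq2 called 1 at 50 against 10 µM. Without the replicate block the members lower at an unadjusted p below 0.05 numbered 7 at 50 against 5 µM (1.48% of all genes). At 50 against 10 µM they numbered 7 without the block (1.93% of all genes) and 6 with DESeq2 (2.12%). Leaving out 1 fish gave 7 to 24 at 50 against 5 µM and 9 to 13 at 50 against 10 µM. The share of all genes moved as well, between 2.72% and 4.80% and between 3.40% and 4.53%. These unadjusted counts and those of the sterol list were added after the data were seen. Members differing between fish numbered 29 in the arsenosugar libraries alone, where 27.8% of all genes were called. Without 1 fish they numbered 5 (without fish 6, 8.7% of all genes) to 17 (without fish 1, 17%). The causes were not tested. Sterol list genes lower at 250 µM, with ebp counted, numbered 9 to 12 of 14 under every alternative run, among them no replicate block (12). The genes called lower over all numbered 4933 (library totals) to 6608 (no replicate block) in these runs. Depth limits the 250 µM values, where a member had a median of 20 reads per library.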
